A study of Rattus norvegicus with 6 samples.

Results

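The genes described here are 10 genes of the axis that runs from growth hormone through STAT5 to insulin-like growth factor 1 (IGF-I) in the liver: Ghr, Stat5a, Stat5b, Socs2, Cish, Igf1, Igfals, Igfbp1, Igfbp2 and Igfbp3. They were selected by their place in this pathway with the ginkgetin and vehicle values of these same libraries already known, so their differences between the groups are given as a description. All 10 were found by symbol among the 16209 rows of the expression table, and all 10 are among the 14639 genes tested. Bulk RNA sequencing was done on 6 liver samples from rats with liver fibrosis. The vehicle group has 3 samples, and the ginkgetin group has 3 samples from rats dosed at 10 mg/kg/day with ginkgetin, a biflavone found in plants such as Ginkgo. Every animal was fibrotic, including the vehicle rats, and livers without fibrosis were not analysed here. The sources used here do not give the strain, age or sex of the rats, the agent that caused the fibrosis or the length of treatment. The vehicle libraries are called TAA1, TAA2 and TAA3 and the ginkgetin libraries Gink1, Gink2 and Gink3, after the table's column names. The labels do not contain the letters TAA, and these columns were taken as vehicle because it is the only other group, so every direction rests on that assignment.

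Growth hormone from the pituitary binds its receptor on hepatocytes and activates the kinase JAK2, which phosphorylates the transcription factors STAT5A and STAT5B. STAT5 switches on Igf1, the source of most circulating IGF-I, and Igfals, whose product holds IGF-I in a long-lived complex with a binding protein in blood. It also switches on Socs2 and Cish, whose products dampen the same receptor's signal. In rats the rhythm of growth hormone release differs between the sexes, and the liver reads that rhythm through STAT5 to set sex-dependent expression of cytochrome P450 and urinary protein genes.

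Values are normalized read counts per gene, and a log2 fold change is the ginkgetin mean minus the vehicle mean of log2(value + 1), which understates the change of genes with few reads. Libraries held 13372367 to 14933853 reads assigned to genes, and the 10 genes had between 38 reads (Socs2 in TAA2) and 11861 reads (Igfbp1 in TAA2) in a library. After normalization the totals were 15863575, 11768875 and 8265117 in TAA1, TAA2 and TAA3. They were 16510702, 16250451 and 16991873 in Gink1, Gink2 and Gink3, all above the vehicle totals. One vehicle library, TAA3, stood apart. The mean log2 level of 16 hepatocyte markers was 15.67, 15.17 and 13.28 in TAA1, TAA2 and TAA3 and 15.61, 15.91 and 16.05 in the ginkgetin libraries. Summed over each marker list, 11 stellate cell and myofibroblast genes ran from 12627 to 127148 normalized reads in vehicle livers and from 3829 to 7364 in ginkgetin livers. For 8 cholangiocyte genes the ranges were 2049 to 21056 and 319 to 784. For 9 macrophage genes they were 2974 to 25971 and 3545 to 6657, for 6 endothelial genes 1799 to 3667 and 3427 to 4490, and for 5 lymphocyte genes 576 to 1083 and 332 to 635. TAA3 was the highest library for the stellate, cholangiocyte, macrophage and lymphocyte lists and the lowest for the hepatocyte list. By gene, 2 of the 11 stellate and 4 of the 9 macrophage genes had higher mean log2 values with ginkgetin, and the others lower. All 16 hepatocyte and all 6 endothelial genes were higher, and all 8 cholangiocyte and all 5 lymphocyte genes lower. Trem2, a macrophage gene, was the one listed marker at 0 in any library. In bulk tissue, fewer cells of a type and less RNA per cell cannot be told apart, and the part of these shifts in the results below was not tested except by the alternatives given.

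Of the 10 genes, 6 had higher values in all 3 ginkgetin libraries than in all 3 vehicle libraries: Ghr, Stat5b, Socs2, Cish, Igf1 and Igfals. Among all genes tested, 11.4% separated in that direction and 16.1% separated in the lower direction, in which none of the 10 did. The remaining 4 genes, Stat5a, Igfbp1, Igfbp2 and Igfbp3, overlapped between the groups. The median log2 fold change was 1.06 over the 10 genes and -0.02 over all genes. In limma none of the 10 passed a Benjamini-Hochberg threshold of 0.05 over all genes tested, which 0.0137% of all genes did. At an unadjusted p under 0.05, limma counted 5 of the 10, against 20.2% of all genes. Run on the whole reads behind the values, edgeR called none of the 10 and 0% of all genes, with 4 of the 10 at an unadjusted p under 0.05 against 19.9% of all genes. DESeq2 called Socs2, Cish and Igf1 as higher, where it called 1.93% of all genes higher and 7.69% lower. Because the genes were selected with this contrast in view, nothing is read from these counts. The same 6 genes separated without TAA3, where 14.5% of all genes separated upward. Without TAA1, limma called Socs2, Igf1 and Igfals, where it called 1.71% of all genes higher and 3.04% lower.

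**Figure D1:**
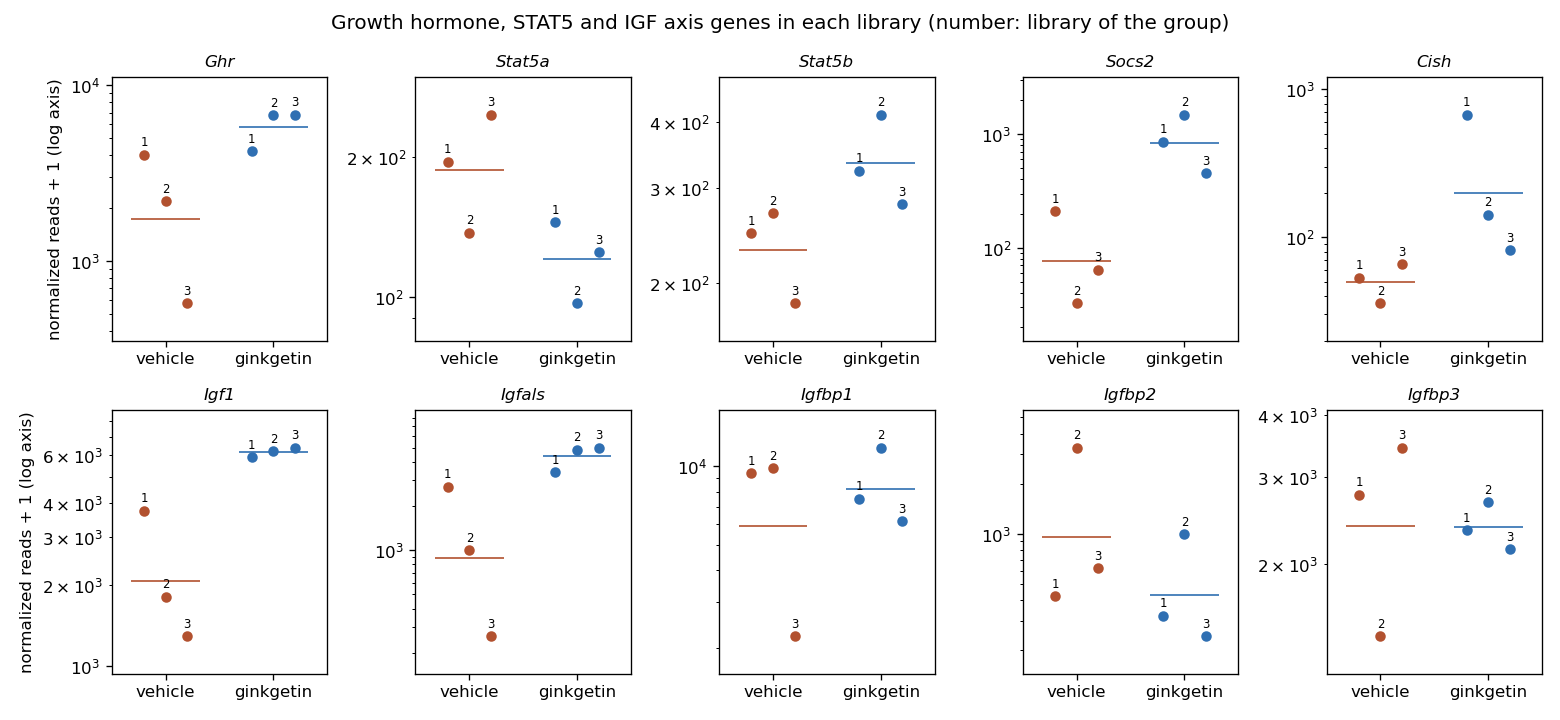
Normalized reads + 1 (log axis) of the 10 genes in each library. Points are libraries, the number beside a point is the library's number in its group, and lines are means on the log scale. The ginkgetin points of Socs2, from 454 to 1483, lie above the vehicle points, from 31.6 to 209. Those of Igfbp1 overlap the vehicle points, with Gink2, at 11789, above all of them.

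The receptor and the STAT5 pair stand at the start of the pathway, and only their RNA was measured here. Ghr, which encodes the growth hormone receptor and, in rodents, its circulating binding protein, had 4033, 2200 and 577 normalized reads in TAA1, TAA2 and TAA3. It had 4230, 6774 and 6793 in Gink1, Gink2 and Gink3. The groups did not overlap, but TAA1 lay just under Gink1, and TAA3 was the lowest library. The log2 fold change of Ghr was 1.75 (SE 0.67, n = 3 and 3), and it was 0.96 without TAA3.

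Stat5b encodes the STAT5 protein that carries most of the growth hormone signal in liver. Its values were 247, 269 and 182 in vehicle livers and 323, 411 and 280 in ginkgetin livers, at a log2 fold change of 0.54 (SE 0.256). The highest vehicle value, 269, and the lowest ginkgetin value, 280, nearly touched. Stat5a, the close paralog that is best known from prolactin signalling in the mammary gland, had 195, 136 and 246 in vehicle livers and 144, 96.0 and 124 in ginkgetin livers (-0.64, SE 0.316). Gink1 lay above TAA2, so the groups overlapped. The ratio of the pair within a library does not depend on how libraries are scaled. Centred over the 6 libraries, log2 Stat5b minus log2 Stat5a was -0.54, 0.09 and -1.31 in vehicle livers and 0.28, 1.20 and 0.29 in ginkgetin livers. Each ginkgetin library thus had more Stat5b relative to Stat5a than any vehicle library, by 0.19 on the log2 scale between the closest libraries, Gink1 and TAA2. Reads may be shared between these near-identical neighbours, and the sources used here do not give the counting rule.

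Socs2 and Cish encode feedback inhibitors of the receptor that STAT5 itself induces, and Socs2 had the largest log2 fold change of the 10 genes. SOCS2 limits growth hormone signalling by marking the receptor for degradation. Socs2 had 209, 31.6 and 63.2 normalized reads in TAA1, TAA2 and TAA3 and 857, 1483 and 454 in the ginkgetin libraries. The lowest ginkgetin library therefore lay above the highest vehicle library, and the means were 101 ± 94.5 and 931 ± 519 (SD, n = 3 each). The log2 fold change was 3.46 (SE 0.681). It ran from 2.84 to 4.19 with any 1 library left out, and it was 3.33 without TAA3. Relative to Ghr in the same library the groups overlapped: log2 Socs2 minus log2 Ghr, centred over libraries, was -0.61, -2.43 and 0.48 in vehicle livers and 1.35, 1.46 and -0.25 in ginkgetin livers.

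Cish encodes CIS, an SH2-domain inhibitor that competes for the receptor's STAT5 docking sites. It had 52.2, 34.9 and 64.4 in vehicle livers and 672, 141 and 80.4 in ginkgetin livers, at a log2 fold change of 1.99 (SE 0.719). Gink1 was 8.36-fold above Gink3, the lowest library of its group. Without Gink1 the log2 fold change was 1.10, and Gink2 and Gink3 still lay above every vehicle library. The vehicle libraries spanned 1.85-fold.

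Cish is a textbook STAT5 target, and its promoter sequence is shown for that reason. STAT proteins bind inverted repeats of TTC and GAA, and STAT5 prefers a spacer of 3 bases, written TTCNNNGAA, which reads the same on both strands. RefSeq promoter windows of the rat assembly GRCr8, from 250 bases before to 50 after the gene start, were found by symbol for 9 of the 10 genes, all but Socs2. Cish held 4 matches and the other 8 windows held none. Over 27457 genes, 8.68% of windows of this length held a match, and 2 windows, Cish and LOC120095689, held 4. That count was made after the Cish matches were seen. The first 150 bases of the Cish window, chr8:116850719-116850868 of GRCr8 on the plus strand, are shown with the 4 matches in capitals:

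Cish promoter, 250 to 101 bases before the start: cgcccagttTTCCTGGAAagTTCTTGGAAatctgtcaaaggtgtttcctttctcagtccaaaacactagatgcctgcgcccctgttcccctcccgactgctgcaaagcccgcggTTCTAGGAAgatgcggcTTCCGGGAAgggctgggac

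The matches begin 241, 230, 136 and 119 bases before the annotated start, in 2 closely spaced pairs. A match is a description of the sequence and not evidence of binding in these livers, and the absence of a match says only that these letters are not in that window. Of 33 windows found for the other pathway genes listed below, 1 held a match, that of Socs1.

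Igf1 and Igfals, the endocrine outputs of the axis, were higher in every ginkgetin library than in any vehicle library. Igf1 had 3738, 1805 and 1294 normalized reads in TAA1, TAA2 and TAA3 and 5884, 6185 and 6377 with ginkgetin. The ginkgetin libraries lay within 1.08-fold of each other, the tightest of the 10 genes, while the vehicle libraries spanned 2.89-fold. The means were 2279 ± 1289 and 6149 ± 249 (SD, n = 3 each), a ratio of 2.70. The log2 fold change was 1.58 (SE 0.44), and 1.24 without TAA3.

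Igfals encodes the acid-labile subunit, which is made by hepatocytes and binds IGF-I and a binding protein into the large complex that keeps IGF-I in the circulation. Igfals had 2711, 1001 and 260 in vehicle livers and 3406, 4848 and 4982 in ginkgetin livers (log2 fold change 2.29, SE 0.743). The vehicle libraries spanned 10.4-fold, with TAA3 lowest and TAA1 near Gink1. Without TAA3 the log2 fold change was 1.40. Igfals minus Igf1 within a library, centred, was 0.39, 0.00 and -1.46 in vehicle livers and 0.07, 0.50 and 0.50 in ginkgetin livers, so the groups overlapped and TAA3 had the least Igfals relative to Igf1.

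The binding protein genes did not move together with Igf1. Igfbp1, an insulin-repressed hepatocyte gene whose product holds IGF-I away from its receptor, had 9438, 9864 and 2224 in vehicle livers and 7508, 11789 and 6137 in ginkgetin livers. TAA3 alone was low, and the log2 fold change of 0.46 (SE 0.649) became -0.24 without it. Igfbp2, which is high in fetal and fasted liver and is lowered by growth hormone, had 420, 3282 and 622 in vehicle livers and 321, 992 and 242 in ginkgetin livers (-1.16, SE 0.795). TAA2 was high within its group and Gink2 within the other, and without TAA2 the log2 fold change was -0.26. Igfbp3, the main carrier of IGF-I in blood, which in liver comes largely from non-parenchymal cells, had 2765, 1433 and 3439 in vehicle livers and 2347, 2674 and 2149 in ginkgetin livers. Its log2 fold change was -0.01 (SE 0.384), and it changed sign with 4 of the 6 libraries left out in turn, ranging from -0.37 to 0.26. The 3 vehicle values of Igfbp3 enclosed the ginkgetin values.

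**Figure D2:**
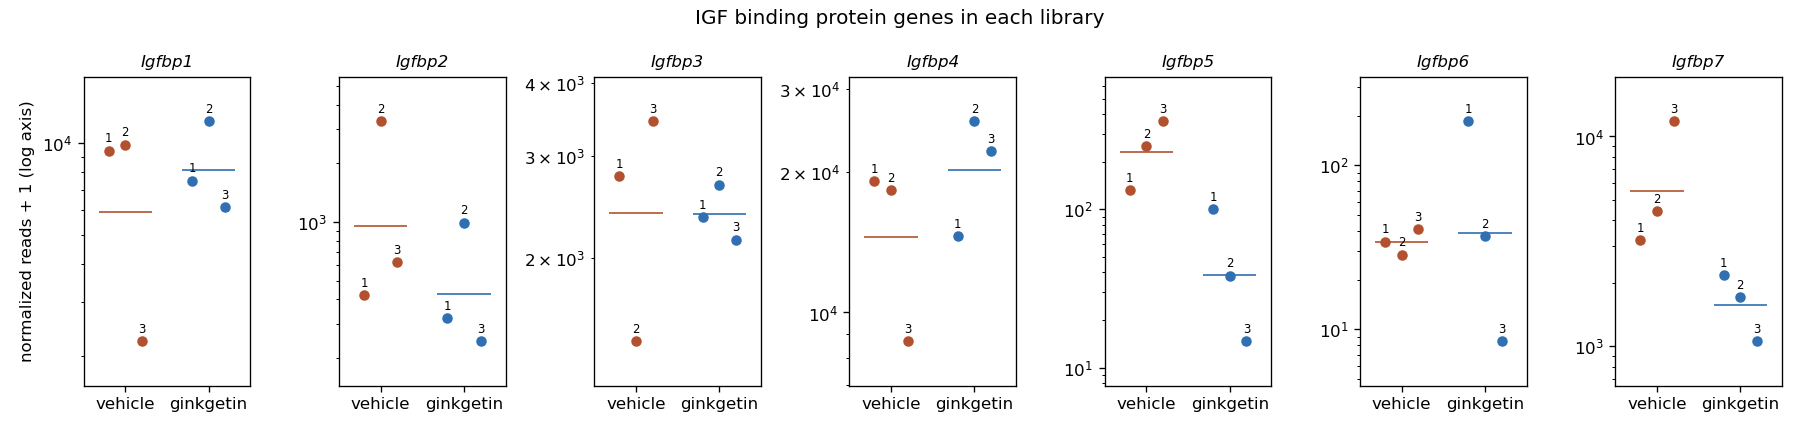
Normalized reads + 1 (log axis) of the 7 IGF binding protein genes in each library, with means on the log scale as lines. Igfbp1 to Igfbp4 and Igfbp6 overlap between the groups, and all ginkgetin points of Igfbp5 and Igfbp7 lie below the vehicle points.

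Ghr, Igf1 and Igfals are hepatocyte genes, and the mean hepatocyte marker level itself was 1.15 higher on the log2 scale with ginkgetin. The groups overlapped in that level, with TAA1 at 15.67 above Gink1 at 15.61. The median log2 fold change of the 16 markers was 1.19, and 0.47 without TAA3. Like 6 of the 10 genes, 5 of the 16 markers separated upward at the deposited scaling. Each library was therefore also centred on its mean hepatocyte marker level, which moved the median log2 fold change of all genes from -0.02 to -1.17 and that of the 10 genes from 1.06 to -0.09. On this scale Ghr, Socs2 and Igfals still separated upward, where 0.929% of all genes did, and Stat5a separated downward, where 29.5% of all genes did. The log2 fold change of Socs2 was 2.30 (SE 0.859), that of Igfals 1.14 (SE 0.674) and that of Ghr 0.60 (SE 0.618). For Socs2 the margin was narrow, with TAA3 at 8.01 and Gink3 at 8.06 in centred log2 units. It was also narrow for Ghr, with TAA1 at 11.59 and Gink1 at 11.72. For Igf1 the centred levels were 11.48, 10.93 and 12.34 in vehicle livers and 12.19, 11.97 and 11.87 in ginkgetin livers, so TAA3 became the highest library and the groups overlapped. Cish was at 0.84, Stat5b at -0.61, Stat5a at -1.79, Igfbp1 at -0.69, Igfbp2 at -2.31 and Igfbp3 at -1.16. With equal library totals, which moved the median of all genes to -0.53, the values were 2.94 for Socs2, 1.77 for Igfals, 1.06 for Igf1 and 0.02 for Stat5b. Limma called none of the 10 genes under either scaling.

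**Figure D3:**
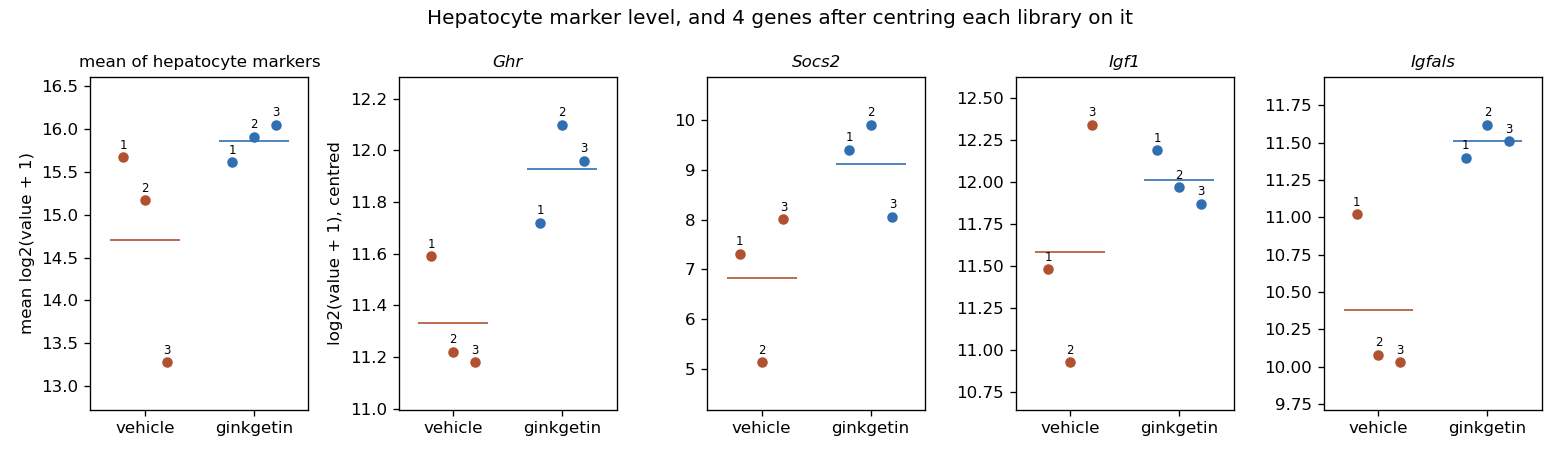
Mean log2(value + 1) of 16 hepatocyte markers in each library (left), and the levels of Ghr, Socs2, Igf1 and Igfals after each library was centred on that mean. Points are libraries numbered within their group and lines are means. TAA3 is the lowest vehicle point for the markers, at 13.28, and the highest for centred Igf1, at 12.34.

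**Figure D4:**
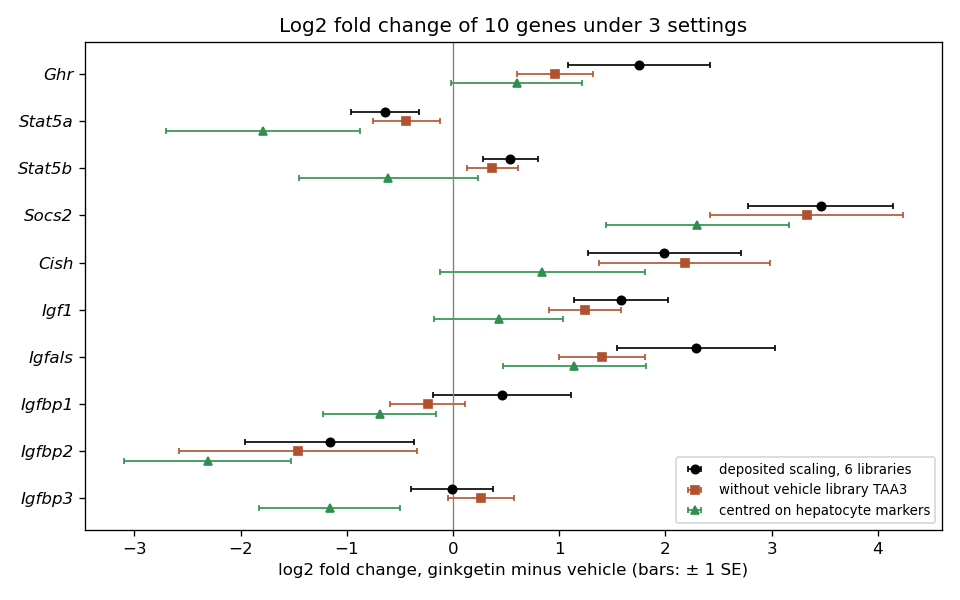
Log2 fold change of the 10 genes, ginkgetin minus vehicle, with bars of 1 SE from limma, at the deposited scaling, without TAA3, and with libraries centred on hepatocyte markers. Socs2 stays at 2.30 or above under the 3 settings, and Stat5b, Igfbp1 and Igfbp3 lie on both sides of 0.

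The list of other pathway genes held 40 genes for ligands, receptors, kinases, phosphatases and further binding proteins, of which 36 were in the table and 35 were tested. In limma none passed over all genes, and at an unadjusted p under 0.05 there were 3 higher and 3 lower, 18 of the 35 having higher means at a median of 0.02. Over all genes, 7% were higher and 13.2% lower at that unadjusted p. Groups separated upward for 3 and downward for 6 of the 35, against 11.4% and 16.1% of all genes, so these counts were near the background. The 3 lower genes with the smallest p were Stc1, Igfbp5 and Igfbp7. Igfbp4 and Igfbp6, of the same family, overlapped and had higher means, at log2 fold changes of 0.48 (SE 0.567) and 0.18 (SE 0.986). Igfbp5, a binding protein of mesenchymal cells, had 132, 250 and 360 in vehicle livers and 99.5, 37.0 and 13.6 in ginkgetin livers (log2 fold change -2.58 with SE 0.696, adjusted p = 0.12 in limma). Igfbp7, a low-affinity member found in vessels and stroma, had 3207, 4397 and 11817 in vehicle livers and 2178, 1708 and 1053 in ginkgetin livers (-1.80, SE 0.536, adjusted p = 0.14). Both had no overlap between groups, and without TAA3 they lay at -2.26 and -1.25. Summed over its 11 genes, the stellate cell list named above was lower in every ginkgetin library as well, although 2 of the 11 had higher means. The part of that list in these values was not tested. Stc1, which encodes stanniocalcin 1, an inhibitor of the protease that cleaves IGF binding proteins, summed to 122 reads in vehicle livers against 5 in ginkgetin livers. That is a ratio of 17.1 after scaling, with an exact 95% counting interval of 7.14 to 53.6 that covers counting error only. By library, Stc1 had 9.49, 25.0 and 51.6 normalized reads in TAA1, TAA2 and TAA3 and 3.32, 2.31 and 0 in the ginkgetin libraries. TAA3 was thus the highest library, and the log2 fold change of -3.32 (SE 0.851) was -2.76 without it.

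Among the receptors and kinases of the list, Prlr, the prolactin receptor, which shares JAK2 and STAT5 with the growth hormone receptor, had 173, 331 and 22.1 in vehicle livers and 1171, 320 and 699 in ginkgetin livers (2.54, SE 0.92, limma adjusted p = 0.187, and 1.41 without TAA3). Its groups overlapped at TAA2 and Gink2. Insr, the insulin receptor, had 380, 359 and 152 in vehicle livers and 461, 649 and 522 in ginkgetin livers. Its log2 fold change was 0.97 (SE 0.367, limma adjusted p = 0.2), and 0.54 without TAA3. Akt2, an insulin-responsive kinase of liver, had 338, 421 and 393 in vehicle livers and 502, 810 and 547 in ginkgetin livers. The log2 fold change of Akt2 was 0.66 (SE 0.248, limma adjusted p = 0.196), and 0.68 without TAA3. Insr and Akt2 separated between the groups. Foxo1, a transcription factor that AKT restrains and that drives Igfbp1, overlapped, at 1.29 (SE 0.571) and at 0.84 without TAA3. Jak2 itself was level, with 311, 260 and 443 against 362, 371 and 280 (0.02, SE 0.264). Ghrhr, the receptor for growth hormone-releasing hormone, had 14 reads in vehicle livers and 2 in ginkgetin livers, a ratio of 4.91 (exact 95% counting interval 1.13 to 44.5). That interval covers counting error only, and the log2 fold change was -1.55 (SE 0.688, limma adjusted p = 0.251). Pappa had 2 reads in all, too few for a fold change.

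The list of growth hormone-regulated and sex-pattern genes of rat liver held 28 genes, of which 24 were in the table and 23 were tested. Prlr and Lepr are on both lists. In limma none passed over all genes, 9 were higher at an unadjusted p under 0.05 and none lower, and 20 of the 23 had higher means at a median of 1.31. That median was 0.71 without TAA3 and 0.16 with libraries centred on hepatocyte markers. Over all genes, 7% were higher and 13.2% lower at that unadjusted p. Separated groups were found for 6 of the 23, all in the higher direction, where 11.4% of all genes separated. Of the 16 hepatocyte markers, 5 separated in that direction as well.

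Cyp2c11, the growth hormone-pulse dependent steroid hydroxylase that is the classic male-specific P450 of rat liver, had 7962, 24.1 and 165 in vehicle livers and 11515, 20123 and 20727 in ginkgetin livers. Mup5, a major urinary protein gene of a family with male-biased expression, had 4916, 2.50 and 208 in vehicle livers and 14007, 9136 and 12547 in ginkgetin livers. The vehicle libraries of Cyp2c11 spanned 330-fold and those of Mup5 1970-fold, in both cases with TAA1 highest and TAA2 lowest. The log2 fold changes were 5.72 (SE 1.75, limma adjusted p = 0.147) for Cyp2c11 and 6.26 (SE 2.14, adjusted p = 0.175) for Mup5. Without TAA3 they were 5.24 and 6.48. Leaving out TAA1, the highest vehicle library for both genes, necessarily raised them, to 8.03 and 8.76. Limma then called both, where it called 1.71% of all genes higher. TAA2 was low for these genes. Its hepatocyte marker level was 15.17, which is 0.44 below that of the lowest ginkgetin library. The part of hepatocyte content in the values of these genes was not tested. Cyp3a2, another male-pattern P450, overlapped, with 3093, 914 and 288 against 1955, 15933 and 5575 (2.58, SE 0.963). The Y-linked genes Eif2s3y and Kdm5d, looked up after these values were seen, had 477 to 872 and 194 to 329 normalized reads over the 6 libraries, so reads of the Y chromosome were present in every library. Reads of the Cyp2c and Mup families may be shared between near-identical copies.

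Of 7 tested genes of the male pattern 6 had higher means with ginkgetin, and of 7 of the female pattern 5 did. Cyp2c12, the female-specific steroid sulfate hydroxylase, had 1497, 716 and 211 in vehicle livers and 195, 427 and 266 in ginkgetin livers (-1.12, SE 0.65), so TAA3 lay among the ginkgetin libraries. Without TAA3 the log2 fold change was -1.88. Srd5a1, a steroid 5-alpha-reductase that is higher in female rat liver, had 884, 595 and 280 in vehicle livers and 2240, 2595 and 4112 in ginkgetin livers (2.44, SE 0.446, limma adjusted p = 0.0803). It had the smallest p of the list and passed in limma with equal library totals (adjusted p = 0.0435), without TAA3 (adjusted p = 0.0368) and without TAA1 (adjusted p = 0.0237). A1bg, a plasma protein gene with female-biased expression in rat liver, summed to 2 reads in vehicle livers against 27 in ginkgetin livers, a ratio of 19.2 (exact 95% counting interval 4.84 to 167). That interval covers counting error only, and the log2 fold change was 2.98 (SE 0.724, limma adjusted p = 0.107). Obp3, another male-pattern urinary protein gene of the list, was not analysed here.

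Of the other genes that growth hormone acts on, Fgf21, a fasting-induced hepatocyte hormone that in turn lowers growth hormone signalling in liver, had 98.5, 164 and 62.6 in vehicle livers and 514, 253 and 358 in ginkgetin livers (1.83, SE 0.41, limma adjusted p = 0.0963, and 1.49 without TAA3). Serpina3c, a secreted serine protease inhibitor of hepatocytes, had 55924, 22769 and 3582 in vehicle livers and 70439, 119940 and 90485 in ginkgetin livers (2.46, SE 1.02, adjusted p = 0.231, and 1.36 without TAA3). Both separated between the groups. Serpina3c was the one gene of this list that limma called with libraries centred on hepatocyte markers (1.31, adjusted p = 0.0185).

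**Figure D5:**
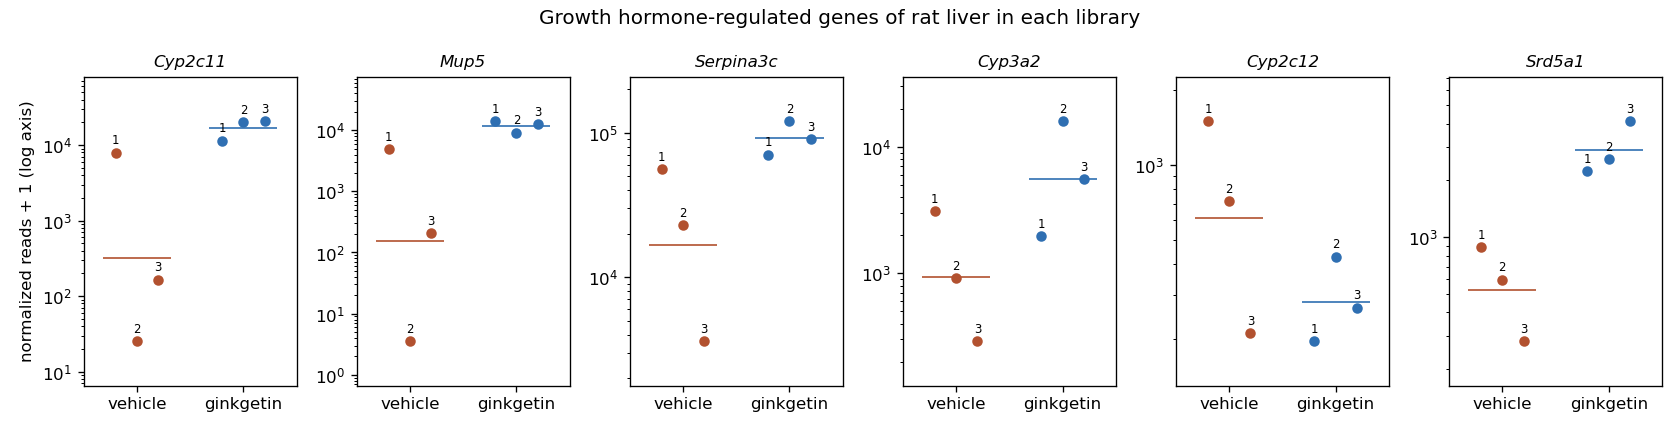
Normalized reads + 1 (log axis) of 6 growth hormone-regulated genes in each library, with means on the log scale as lines. In the Cyp2c11 and Mup5 panels TAA1, at 7962 and 4916, lies near the ginkgetin points while TAA2, at 24.1 and 2.50, lies far below them.

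Genes whose pattern over the 6 libraries was most like that of Igf1, Igfals and Igfbp2 were searched by Pearson correlation of log2 values among 7317 other genes of above-median level. With so few libraries, in 2 groups, high correlations are common, and they are given as a description. Among the nearest to Igf1 were Lrrc28 (r = 0.996) and Fam69a (0.996). Nearest to Igfals were Cyp2d4 (0.999) and Cyp4f1 (0.998), both P450 genes, and Maob (0.998), a monoamine oxidase. Nearest to Igfbp2 were Bahd1 (0.984), Eif6 (0.965) and Abca2 (0.958), whose levels moved over a much narrower range, such as 285 to 380 for Bahd1.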

How the data were processed

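RNA of 3 vehicle and 3 ginkgetin liver samples was read from 1 table of genes by libraries. Per the labels' protocols, a SMARTER mRNA kit was used on total RNA, and per the submitters' processing notes the build was mRatBN7.2. The aligner, counter, annotation and strand setting were not given in the sources used here. The authors deposited a signal: reads per gene divided by 1 factor per library, by a method that the table does not name. Dividing by a library's smallest positive value gave whole numbers, within 0.02, for 99.67% of values in each library, and the rounded reads went into edgeR 4.0.16 and DESeq2 1.42.0 as alternatives. Differences of log2(value + 1) were tested with limma 3.58.1 (R 4.3.3, trend and robust options), keeping genes that reached a value of 1 in 3 libraries, with Benjamini-Hochberg adjustment over all 14639 genes at 0.05. The fit was tested on simulated data. The labels name no separate animals, and any p-value then reflects only how these samples vary, which may be technical.

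The members, lists and tests were chosen with earlier results of these data known. Named genes were the 10 members, the 8 genes with the smallest p in each list, Cyp2c11, Cyp2c12 and Obp3, and the 3 genes most like each of Igf1, Igfals and Igfbp2. One gene that this rule names is not reported here. Jak2, Pappa, the Y-linked genes and the remaining binding protein genes were added after their values were seen. Alternatives were other pseudocounts, filters, scalings, tests, a replicate block and each library left out. Same-numbered libraries did not deviate together (r = -0.16, 0.03 and -0.21 across genes), and the numbers were not taken as pairs. Promoter sequences and neighbouring genes are from RefSeq tables of GRCr8, another assembly than that of the files.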

Additional observations from a re-analysis of the deposited data

How the results depend on the processing

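Limma called 2 genes of 14639, 1 with quantile scaling, 5 with 5 added before logs, 27 without trend and robust moderation, 94 with equal library totals, 885 with libraries centred on hepatocyte markers, and 0 to 696 with 1 library left out, most without TAA1 and 84 without TAA3. With the replicate block the count was 0, with none of the 10 genes called, and the block changed no other call. EdgeR called 0 and DESeq2 1375. Of the 10 genes, 0 were called, 0 to 3 with 1 library left out (3 without TAA1) and 3 by DESeq2. Other pathway genes called lower numbered 3 when centred (Igfbp5, Igfbp7 and Stc1), 3 by DESeq2 and 0 to 1 with 1 library left out. Growth hormone-regulated genes called higher numbered 1 with equal totals, 1 when centred, 3 by DESeq2 and 0 to 4 with 1 library left out. The median of the 10 genes was -0.09 when centred, below 0, and 0.67 to 1.40 with 1 library left out. Of the 6 genes separated upward, quantile scaling lost Ghr (5 left), equal totals lost Stat5b and Cish (4 left) and centring lost Stat5b, Cish and Igf1 (3 left); Stat5a separated downward with equal totals and when centred. Stat5b was -0.61 when centred. Igfbp1 was -0.04 with quantile scaling, -0.06 with equal totals, -0.69 when centred and ran from -0.24 (without TAA3) to 0.83 with 1 library left out. Igfbp3 ran from -0.37 to 0.26, and was 0.10 without TAA1, 0.26 without TAA3, 0.01 without Gink1 and 0.07 without Gink3. The causes of these shifts were not tested. Genes with few reads, such as A1bg and Ghrhr, are limited by depth.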
